A study of Mus musculus with 161 samples.

Results

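The 9 genes described here belong to the MHC class I presentation pathway: B2m, H2-K1, H2-D1, H2-T23, Tap1, Tap2, Tapbp, Erap1 and Nlrc5. They were chosen by name from the 43280 gene rows of a single-cell expression table, and all 9 were found. Each counted as measured, meaning that 10% or more of the cells of some group exceeded 1 TPM, as did 14003 genes in all. TPM is a transcript abundance corrected for transcript length and scaled to a fixed total per cell, so levels of different genes can be set side by side.

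The table covers 161 untreated single cells of C57BL/6 mice, captured on the Fluidigm C1 system, which makes each library from 1 capture site. There were 66 common monocyte progenitors (cMoP), which are bone marrow cells committed to the monocyte lineage, sorted as Lin- CD117+ CD115+ CD135- Ly6C+. A further 57 cells were bone marrow (BM) monocytes, sorted as Lin- CD117- CD115+ CD135- Ly6C+, and 38 were blood monocytes, sorted as CD115+ CD11b+ with high Ly6C. Genotype beyond the strain, age and number of animals are not stated in the labels, which name no animal. Each group therefore counts as 1 sample, no test between groups was run, and SDs and intervals below cover the spread between cells only.

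MHC class I molecules show peptides from inside the cell to CD8 T cells at the cell surface. Each is a heavy chain paired with the light chain beta-2-microglobulin. Peptides made by the proteasome are pumped into the endoplasmic reticulum by the TAP transporter, trimmed there, and loaded onto heavy chains held close to the transporter by tapasin. The promoters of many class I genes are opened by the transactivator NLRC5 and by factors that act downstream of interferons and of NF-kB.

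On the mouse build GRCm38 (GENCODE M21 annotation), 6 of the genes lie on chromosome 17, which carries the mouse MHC. In order along it they are Tapbp (33915899 to 33929292, plus strand), H2-K1 (33996017 to 34000347, minus), Tap1 (34187553 to 34197225, plus), Tap2 (34203527 to 34216321, plus), H2-D1 (35262730 to 35267499, plus) and H2-T23 (36029773 to 36032855, minus). B2m lies on chromosome 2 (122147686 to 122153083, plus), Nlrc5 on chromosome 8 (94434356 to 94527272, plus) and Erap1 on chromosome 13 (74639568 to 74693201, plus). All 9 are annotated as protein-coding. The whole of B2m overlaps Patl2 and the whole of H2-T23 overlaps A930015D03Rik, in each case on the opposite strand. Tap1 overlaps Psmb9 over 212 bases, Tap2 overlaps 2 predicted genes, and Tapbp, Erap1 and Nlrc5 also overlap other annotated genes in part. The sources used here do not say that reads were counted by strand, so the values of overlapping genes may share reads.

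Promoter sequences were taken from RefSeq (GRCm38.p6) for 7 of the 9 members, with Tap2 and Nlrc5 named only. They run from 250 bases before to 50 after the gene start used there, which can differ from the GENCODE start given above. By the GENCODE positions, the windows of H2-D1, Erap1 and Tapbp lie wholly inside the gene. The 4 shown are those of both classical heavy chains, of the light chain and of the transporter subunit whose level differed most between BM monocytes and cMoP. Capitals mark the matches to the motifs named after them.
H2-K1, chr17:34000298-34000597, minus strand: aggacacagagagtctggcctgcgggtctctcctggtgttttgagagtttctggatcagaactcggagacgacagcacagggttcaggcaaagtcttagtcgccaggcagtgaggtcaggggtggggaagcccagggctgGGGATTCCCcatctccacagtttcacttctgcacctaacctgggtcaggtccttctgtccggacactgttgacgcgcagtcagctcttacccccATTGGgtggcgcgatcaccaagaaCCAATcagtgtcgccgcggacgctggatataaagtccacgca
H2-D1, chr17:35262844-35263143, plus strand: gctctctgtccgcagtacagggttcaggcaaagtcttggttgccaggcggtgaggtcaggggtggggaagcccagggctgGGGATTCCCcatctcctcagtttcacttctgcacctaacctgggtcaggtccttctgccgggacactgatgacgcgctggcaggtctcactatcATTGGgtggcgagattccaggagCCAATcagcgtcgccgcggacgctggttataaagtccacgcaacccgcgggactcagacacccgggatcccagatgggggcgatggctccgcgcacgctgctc
B2m, chr2:122147437-122147736, plus strand: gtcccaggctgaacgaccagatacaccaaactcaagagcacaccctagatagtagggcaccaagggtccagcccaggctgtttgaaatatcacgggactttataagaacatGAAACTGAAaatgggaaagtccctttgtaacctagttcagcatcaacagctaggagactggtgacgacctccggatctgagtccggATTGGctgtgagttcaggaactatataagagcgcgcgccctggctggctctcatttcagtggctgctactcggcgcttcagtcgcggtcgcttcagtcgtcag
Tap1, chr17:34187306-34187605, plus strand: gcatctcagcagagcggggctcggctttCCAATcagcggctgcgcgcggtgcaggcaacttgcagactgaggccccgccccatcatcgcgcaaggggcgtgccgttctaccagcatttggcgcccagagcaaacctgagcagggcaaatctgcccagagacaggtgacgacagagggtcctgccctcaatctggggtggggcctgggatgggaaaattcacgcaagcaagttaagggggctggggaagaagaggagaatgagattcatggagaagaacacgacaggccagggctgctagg

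Both strands were searched for 5 motifs. GGGATTCCC, an NF-kB core, was found in H2-K1 and H2-D1, so in 2 of 7 members, and in 0.370% of the 27025 promoters of the same length. The 300-base windows of those 2 genes aligned over 228 columns, of which 206 (90.4%) were identical, and the match lies inside the aligned stretch. GAAANNGAA, the core of the interferon-stimulated response element, was found in B2m, Erap1 and H2-T23, and in 8.57% of all promoters. ATTGG, the inverted CCAAT box, was found in 6 of 7 members, Erap1 being the exception, and in 37.9% of all promoters. Neither TGACGT (7.64% of all promoters) nor TTCNNNGAA (8.47%) was found in any of the 7 windows, and none of these motifs contains another. A match describes the letters and is no evidence of binding. Only exact matches were counted, so a window without a match may hold a near match, and is no evidence that the element is missing.

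The libraries differed in ways that touch the values below. Genes above 1 TPM per cell had a median of 6662 in cMoP, 4719 among BM monocytes and 4320 among blood monocytes. BM and blood monocytes shared 1 flow cell and lane, 60 cMoP came from another flow cell, and 6 cMoP carry none in their label, so cMoP and monocytes cannot be told apart from their flow cells. A mitochondrial share above 15% of TPM was found in 11 cMoP. Blood monocyte replicate 29 had 0.362% of its TPM in ribosomal protein genes, where the next lowest blood cell had 3.31%, and 377 TPM of Lyz2, a lysozyme gene of myeloid cells, where the next lowest had 25841. These 18 libraries are called below the libraries that stand apart, and the results were also computed without them.

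The labelled cell types were checked against marker genes. The summed level of 8 cMoP markers had a median of 18933 TPM in cMoP, 8.23 TPM among BM monocytes, and 7.25 TPM among those of blood. That of 8 monocyte markers was 7038, 63195 and 63612 TPM in the same order. Lymphocytes express class I genes strongly, so their markers were read beside the results. Cd79a and Pax5 of B cells, Cd3e, Cd3g and Trac of T cells, and Ncr1 and Gzma of NK cells were listed at 0 in all 161 cells. The summed B cell list of 7 genes nonetheless had medians of 672, 573 and 4.48 TPM, ranging from 11.7 to 1844 TPM in cMoP, from 0 to 2487 TPM in BM monocytes and from 0 to 2114 TPM in blood monocytes. The 7 T cell genes ranged from 0 to 101, 1001 and 20.8 TPM in those 3 groups. The 5 NK cell genes ranged from 0 to 2803, 6.38 and 34.9 TPM, and the part of these lists in the results was not tested.

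Light chain and classical heavy chain transcripts were abundant in all 3 groups. B2m, H2-D1, H2-K1 and H2-T23 were all at least 2-fold higher in blood monocytes than in cMoP, and of these H2-D1 and H2-T23 in BM monocytes too. B2m encodes the light chain, which every class I heavy chain needs to reach the surface. Its level ran from 195.8 to 9340 TPM with a median of 1986 in cMoP, from 1043 to 9493 with a median of 3682 in BM monocytes, and from 59.8 to 12501 with a median of 4788 in blood monocytes. All cells of all groups were above 10 TPM, and the 3 ranges overlapped. By mean TPM it stood at place 42 of all genes in cMoP, 21 among BM monocytes and 11 among blood monocytes.

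The lowest blood value of B2m was replicate 29, and the other 37 blood cells began at 1598 TPM. Among cMoP, the 6 cells with no flow cell in their label held 5563 to 9340 TPM of B2m, and the 60 others 195.8 to 3540 TPM, so these sets did not overlap. They did not overlap in genes above 1 TPM per cell either, with 8720 to 9971 in the 6 and 4478 to 7552 in the 60. The separation is therefore not particular to B2m. By mean TPM the same 6 cells did not stand above the others in H2-K1, with 410 TPM against 515 TPM in the 60 others, or in H2-D1, with 653 against 795 TPM. By mean log2(TPM + 1) they did, with 8.53 against 7.93 for H2-K1 and 9.30 against 8.94 for H2-D1. The order of the heavy chains thus depended on the summary. For H2-T23 the means were 130 TPM in the 6 and 90.5 TPM in the 60.

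H2-D1 encodes one of the classical heavy chains, the kind that presents peptides to CD8 T cells. It ran from 0.53 to 2242 TPM with a median of 730 in cMoP, from 292 to 13207 with a median of 2495 in BM monocytes, and from 19.3 to 9689 with a median of 3900 in blood monocytes. The lower quartile of BM monocytes, 1641 TPM, was above the upper quartile of cMoP, 1051.5 TPM. In the 11 cMoP of high mitochondrial share the median was 98.9 TPM, against 764 TPM in the other 55.

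H2-K1, the other classical heavy chain of this strain, was lower than H2-D1 and varied more between cells of the bone marrow. Its range was 0 to 2307 TPM with a median of 355 in cMoP, 2.33 to 5376 with a median of 634 in BM monocytes, and 7.54 to 4971 with a median of 1338 in blood monocytes. Of all cells, 2 cMoP were listed at 0. The SD over cells of log2(TPM + 1) in BM monocytes was 2.64 for H2-K1 and 1.13 for H2-D1. More H2-D1 than H2-K1 was found in 48 of 66 cMoP, 49 of the 57 BM monocytes and 33 of the 38 blood monocytes.

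H2-T23 encodes Qa-1, a non-classical heavy chain that shows signal peptides of other class I molecules to NK and T cell receptors. It ran from 3.97 to 398 TPM with a median of 57.3 in cMoP, from 8.20 to 2141 with a median of 375 in BM monocytes, and from 0 to 2296 with a median of 316 in blood monocytes. Its one value of 0 was blood replicate 29. In blood monocytes the SD of log2(TPM + 1), 3.07, was the highest of the 4 chains.

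**Figure D1:**
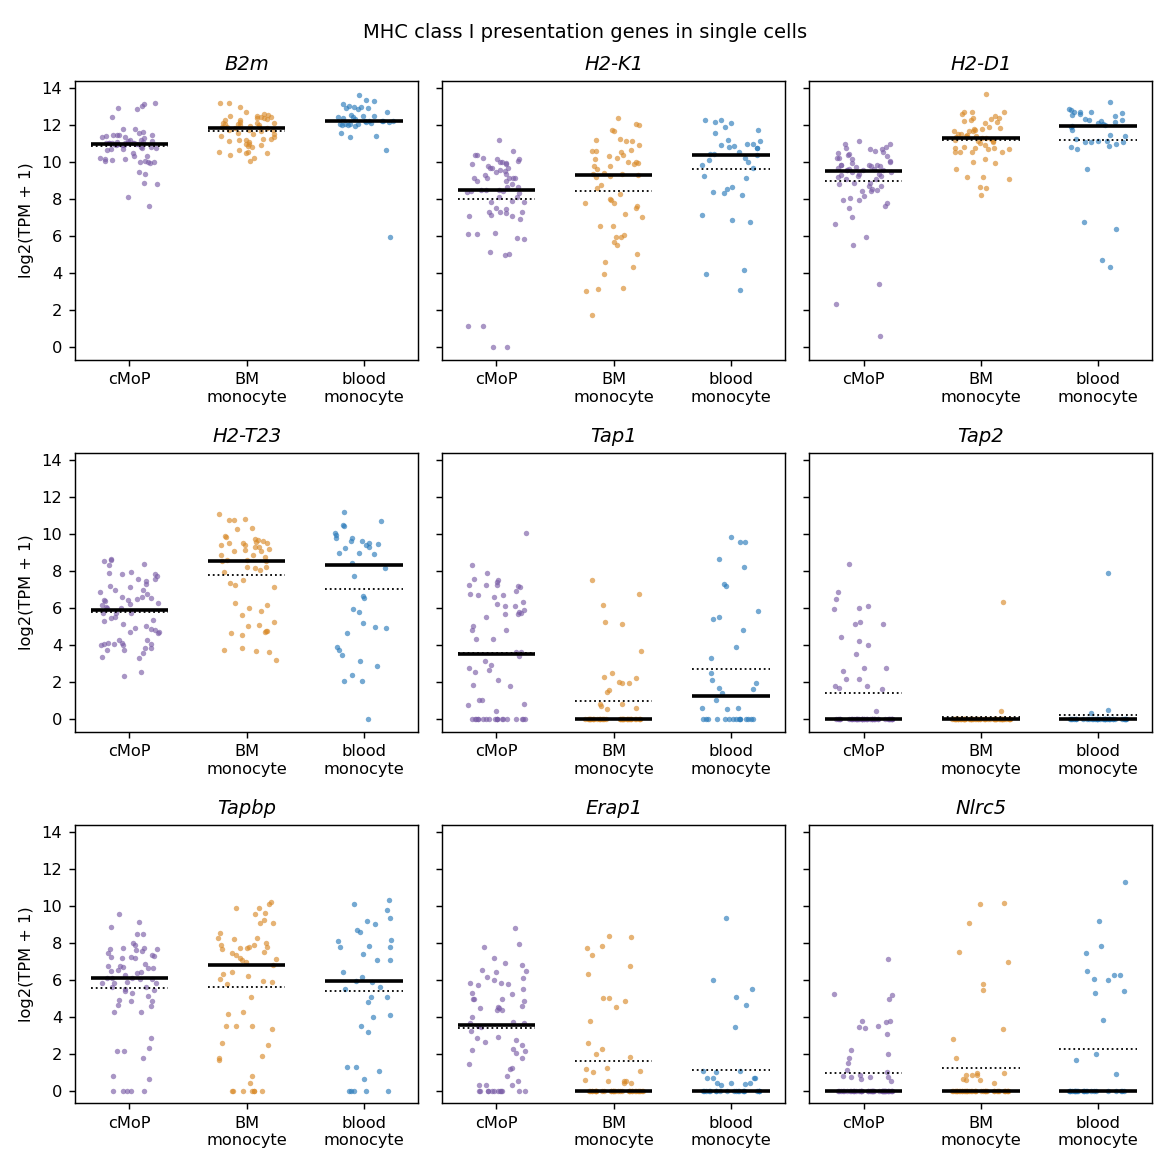
Level of each of the 9 genes in every cell, as log2(TPM + 1), for 66 cMoP, 57 BM monocytes and 38 blood monocytes; each point is 1 cell, the solid bar is the median over cells and the dotted bar the mean. The light and heavy chain genes sit high in nearly all cells, while Tap1, Tap2, Erap1 and Nlrc5 have many cells at 0.

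Heavy chain genes are close copies of each other, so reads could be assigned to the wrong row. Of all 50-base stretches of the transcripts, 28.8% for H2-T23, 13.9% for H2-D1 and 6.87% for H2-K1 also occur in transcripts of another gene, against 0% for B2m. Levels of single heavy chains are therefore uncertain, and the 23 heavy chain rows found in the table were also summed per cell. H2-T-ps, in which 12.9% of the stretches of H2-T23 also occur, is not among these rows. The sum had a median of 1339 TPM in cMoP, 4070 TPM among BM monocytes, and 6378 TPM among those of blood. Its mean on the log2 scale was 11.91 ± 0.98 (SD, 57 cells) in BM monocytes against 10.31 ± 1.08 (66 cells) in cMoP, so 1.60 higher. In blood monocytes it was 12.34 ± 1.12 (38 cells), a difference of 0.43 from BM monocytes and 2.03 from cMoP. Without the libraries that stand apart the 3 differences were 1.32, 0.49 and 1.81.

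H2-K1 and H2-D1 together made up most of the summed heavy chains, with a median share over cells of 83.3% in cMoP, 85.8% among BM monocytes and 87.7% among blood monocytes. The ratio of B2m to the sum had a median of 1.29 in cMoP, 0.83 among BM monocytes and 0.92 among blood monocytes. B2m was below the sum in 26 of 66 cMoP (39.4%), 34 of the 57 BM monocytes (59.6%) and 21 of the 38 blood monocytes (55.3%). Within cMoP the median ratio was 6.30 in the 6 cells with no flow cell and 1.13 in the 60 others.

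A single blood monocyte had a heavy chain sum under 500 TPM. This cell, replicate 7, had a sum of 296 TPM, with 107.5 TPM of H2-K1 and 82.3 TPM of H2-D1, yet 7870 TPM of B2m. Replicate 9 had 14.8 TPM of H2-K1 and 24.8 TPM of H2-D1, but a sum of 1374 TPM, and 4477 TPM of B2m. Lyz2 stood at 45003 TPM in replicate 7 and 39840 TPM in replicate 9. Ly6c2, which encodes the antigen of the sort gate, stood at 2143 TPM in replicate 7 and 13.9 TPM in replicate 9. These cells were picked for their low sum, and their values are a description.

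**Figure D2:**
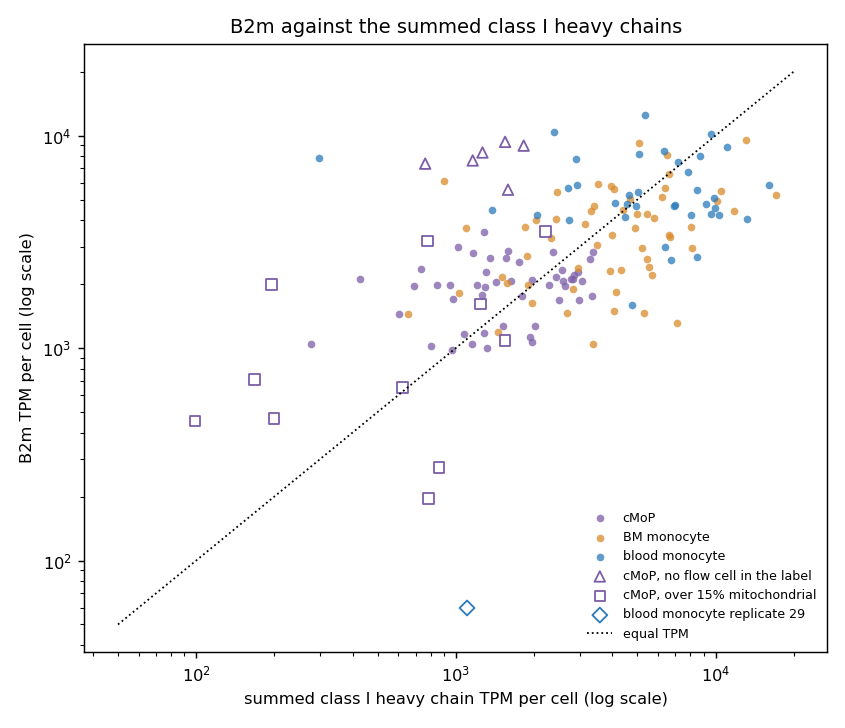
B2m TPM (vertical, log scale) against the summed TPM of 23 class I heavy chain rows (horizontal, log scale) in each of 161 cells; colours are the 3 groups, open symbols are the cMoP with no flow cell or a mitochondrial share above 15% and blood replicate 29, and the dotted line marks equal TPM. The 6 cMoP with no flow cell lie at 5563 to 9340 TPM of B2m, and blood replicate 29 lies lowest at 59.8 TPM.

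The transporter genes had the reverse order between bone marrow groups: their transcripts were found in a larger share of cMoP than of BM monocytes. Genes above 1 TPM per cell were also more in cMoP, with a median of 6662 against 4719 in BM monocytes. Tap1 encodes one of the 2 subunits of the peptide transporter. It ran from 0 to 1044 TPM with a median of 10.3 in cMoP, from 0 to 178 with a median of 0 in BM monocytes, and from 0 to 918 with a median of 1.34 in blood monocytes. Above 1 TPM were 24.6% of BM monocytes (exact Clopper-Pearson 95% interval 14.1 to 37.8%) and 66.7% of cMoP (54 to 77.8%). In blood monocytes the share was 52.6% (35.8 to 69.0%). The means were 63.3, 8.18 and 95.2 TPM in cMoP, BM monocytes and blood monocytes, and 1 cell held 25%, 38.3% and 25.4% of each group's total.

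Tap2 encodes the partner subunit, without which the transporter does not work. It was above 1 TPM in 22 of 66 cMoP (33.3%, 22.2 to 46%), but in 1 of 57 BM monocytes (1.75%, 0.044 to 9.39%) and 1 of 38 blood monocytes (2.63%, 0.067 to 13.8%). The BM monocyte had 79.6 TPM and the next highest 0.36 TPM; the blood monocyte had 234 TPM and the next highest 0.38 TPM. The highest of the cMoP had 324 TPM. With so few cells, group means of Tap2 in monocytes rest on a single cell each, and at these low levels a 0 can be a transcript lost in capture.

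**Figure D3:**
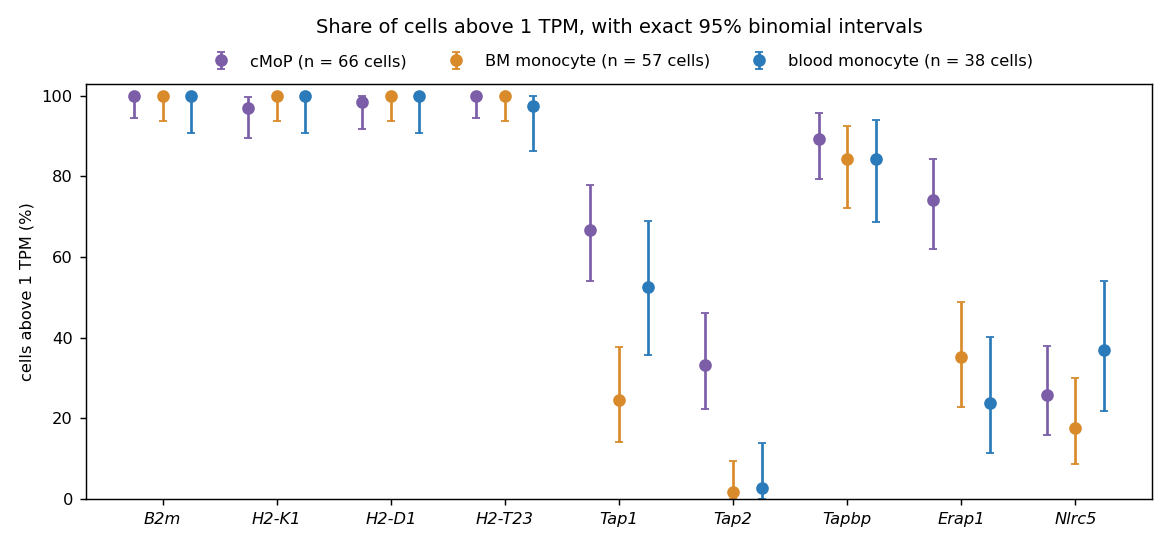
Share of cells above 1 TPM (vertical, %) for each of the 9 genes in 66 cMoP, 57 BM monocytes and 38 blood monocytes, with exact 95% binomial intervals that cover the counting of cells only. The shares of Tap1, Tap2 and Erap1 were highest in cMoP. Genes above 1 TPM per cell were also most in cMoP, with medians of 6662, 4719 and 4320 in the 3 groups.

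Tapbp and Erap1 act in the endoplasmic reticulum, where peptides are trimmed and loaded. Tapbp encodes tapasin, which bridges the transporter and empty class I molecules. It ran from 0 to 750 TPM with a median of 67.0 in cMoP, from 0 to 1169 with a median of 112 in BM monocytes, and from 0 to 1273 with a median of 59.4 in blood monocytes. Shares of cells above 1 TPM were 89.4%, 84.2% and 84.2%. In the 11 cMoP of high mitochondrial share its median was 0.72 TPM, against 80.4 TPM in the other 55.

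Erap1 encodes the aminopeptidase that trims the amino end of peptides before loading. Its medians were 10.9 TPM in cMoP and 0 TPM in both BM and blood monocytes, and its highest cells had 437, 329 and 649 TPM in these 3 groups. The share of cells above 1 TPM was 74.2% in cMoP (62 to 84.2%), 35.1% among BM monocytes (22.9 to 48.9%) and 23.7% among blood monocytes (11.4 to 40.2%). The single highest blood cell held 78.6% of the blood total.

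Nlrc5 encodes the transactivator that works at class I promoters. It was found in a minority of cells of each group: above 1 TPM were 25.8% of cMoP (15.8 to 38%), 17.5% of the BM monocytes (8.75 to 29.9%) and 36.8% of those from blood (21.8 to 54%), and all 3 medians were 0. The highest cells had 136, 1124 and 2494 TPM in the same order. Among cells above 1 TPM the median was 10.05 TPM in cMoP, 88.7 TPM among BM monocytes, and 69.2 TPM among those of blood. The highest blood cell alone held 63.4% of the blood total.

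Ordered by median TPM, B2m came first in every group, H2-D1 after it and then H2-K1. In cMoP, Tapbp (67.0 TPM) came next and H2-T23 (57.3 TPM) after it, while in BM and blood monocytes H2-T23 stood above Tapbp. Among these first 5 genes, neighbours differed in mean log2 level by less than the larger of their SDs over cells, with 1 exception: in BM monocytes H2-D1 averaged 11.16 ± 1.13 and H2-K1 8.45 ± 2.64. In cMoP Erap1 (10.9 TPM) and Tap1 (10.3 TPM) followed, and in monocytes the medians of the last 4 genes were at or near 0 and give no order.

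BM monocytes were then set against cMoP, which asks how class I transcripts differ between the committed progenitor and the monocyte of the same tissue. Differences are between group means of log2(TPM + 1), the later stage less the earlier one, and a gene was counted when the difference reached 2-fold (1 on this scale) in either direction. The pseudocount of 1 can understate differences of low genes. A mean of log2 values also follows the share of cells with the transcript, and can exceed a difference in mean TPM. At least 2-fold higher in BM monocytes were H2-D1, by 2.19, and H2-T23, by 1.99, so 2 of 9, where 3.94% of the 14003 measured genes were as much higher. At least 2-fold lower were Tap1 (-2.62), Erap1 (-1.78) and Tap2 (-1.26), so 3 of 9, where 30.8% of all measured genes were as much lower. Tap2 counted as measured through cMoP alone, so its lower values in both monocyte groups follow in part from that filter. Together 5 of 9 members, and 34.7% of all measured genes, were past 2-fold. The share of lower members is near this background. Differences of B2m (0.81), H2-K1 (0.46), Nlrc5 (0.28) and Tapbp (0.09) were under 2-fold. As a log2 ratio of mean TPM, Nlrc5 stood at 3.24, with 55.9 TPM in BM monocytes against 5.01 TPM in cMoP, and Erap1 at -0.42, under 2-fold.

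The median difference over the 9 genes was 0.28 and that over all measured genes -0.45, so the typical gene was lower in BM monocytes, which also had fewer genes per cell. For H2-D1, mean log2 levels were 11.16 ± 1.13 in BM monocytes and 8.97 ± 1.92 in cMoP (SD over 57 and 66 cells), and the difference exceeded either SD. For Tap1 they were 0.94 ± 1.85 in BM monocytes and 3.56 ± 3.03 in cMoP, so the difference was smaller than the SD of cMoP. Without the libraries that stand apart H2-D1 differed by 1.58, H2-T23 by 2.01, Tap1 by -2.43, Tap2 by -1.28 and Erap1 by -1.88. Among cells with 4500 to 6000 genes, which are 33 BM monocytes and 17 cMoP, 10 of the latter of high mitochondrial share, Tap1 differed by -2.20, Tap2 by -1.11 and Erap1 by -0.46. In the same cells B2m (1.08), H2-K1 (1.19) and Tapbp (2.32) were past 2-fold higher. There 5 of 9 members were at least 2-fold higher and 2 lower, where 11.7% and 12.9% of all measured genes were. Whether genes per cell or mitochondrial share had a part in these differences was not tested.

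Blood monocytes were next set against BM monocytes, libraries of 1 flow cell and lane, which asks what differs between marrow and circulation. Tap1 was higher in blood by 1.77, H2-K1 by 1.19 and Nlrc5 by 1.04. That is 3 of 9, where 1.96% of all measured genes were at least 2-fold higher, and 0 of 9 were at least 2-fold lower, where 9.66% of all were; 11.6% of all were past 2-fold either way. H2-K1 averaged 9.64 ± 2.28 in blood and 8.45 ± 2.64 in BM monocytes on the log2 scale, so its difference was within the spread between cells, as were those of Tap1 and Nlrc5. The value for Nlrc5 ran from 0.79 to 1.19 when each cell in turn was left out, and leaving out any of 12 cells took it under 2-fold. As a log2 ratio of mean TPM, H2-K1 stood at 0.69 and Nlrc5 at 0.88, both under 2-fold, and Tap1 at 3.39.

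H2-D1 differed by 0.02 between blood and BM monocytes, a value that depended on the summary: it was 0.64 between the medians over cells and 1.09, past 2-fold, in cells with 4500 to 6000 genes. B2m differed by 0.51, Tap2 by 0.11, Tapbp by -0.22, Erap1 by -0.51 and H2-T23 by -0.71. The sign for H2-T23 was not stable: in cells with 4500 to 6000 genes it differed by 0.57, and as a ratio of means by -0.01. Without replicate 29, B2m differed by 0.68, H2-D1 by 0.14, H2-K1 by 1.22 and Tap1 by 1.84.

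Blood monocytes against cMoP share their groups with both comparisons above, and give the whole span. At least 2-fold higher in blood were H2-D1 (2.21), H2-K1 (1.66), B2m (1.32), Nlrc5 (1.32) and H2-T23 (1.28), so 5 of 9, where 4.28% of all measured genes were as much higher. At least 2-fold lower were Erap1 (-2.29) and Tap2 (-1.15), so 2 of 9, where 37.7% of all were as much lower and 41.9% past 2-fold either way. Tap1 differed by -0.85 and Tapbp by -0.14. Of Tap1, leaving out any of 4 cells took the difference past 2-fold, and its ratio of means had the other sign, at 0.58. In cells with 4500 to 6000 genes, 14 of blood and 17 cMoP, 0 of 9 were at least 2-fold lower, where 20.3% of all measured genes were. Erap1 differed by -0.97 and Tap2 by -0.74. In the same cells 5 of 9 were at least 2-fold higher, where 11.8% of all measured genes were. Nlrc5 (0.87) was under 2-fold there and Tapbp (3.58) past it. As a ratio of means Erap1 stood at -0.74. The median over the 9 genes was 1.28 and that over all measured genes -0.58. Mean log2 levels of B2m were 12.19 ± 1.2 in blood and 10.87 ± 1.03 in cMoP (SD over 38 and 66 cells). Without the libraries that stand apart B2m differed by 1.5, H2-K1 by 1.36, H2-D1 by 1.72, H2-T23 by 1.49, Nlrc5 by 1.65, Erap1 by -2.39 and Tap2 by -1.16.

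**Figure D4:**
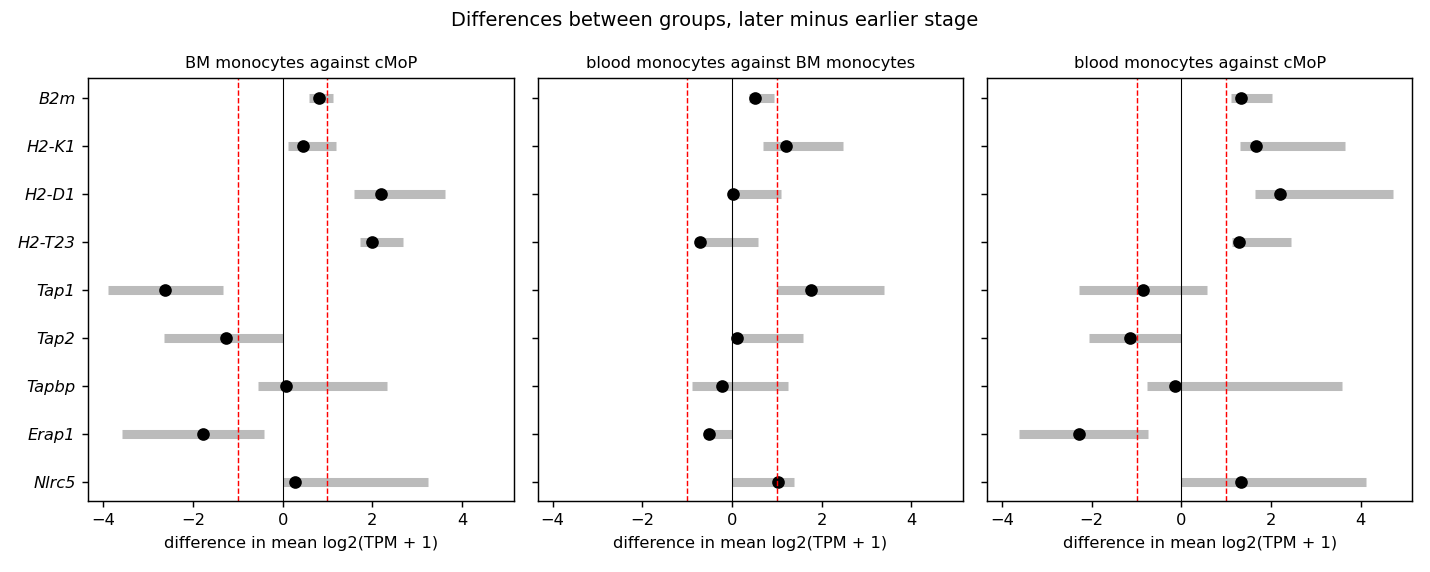
Difference in mean log2(TPM + 1) of each gene, later minus earlier stage, in 3 comparisons; black points are the values as reported, grey bars span all alternative settings tried, and red dashed lines mark 2-fold. H2-D1 lies at 2.19 and Tap1 at -2.62 for BM monocytes against cMoP, and the bars of Tapbp cross 0 in every panel.

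Members were compared between cells of the same group by Pearson's r of log2(TPM + 1). These are descriptions: the cells of a group share their library preparation and a fixed TPM total, and sparse genes give weak values. Over the 36 pairs r had a median of 0.09 over 66 cMoP, 0.07 over 57 BM monocytes and 0.10 over 38 blood monocytes. It reached 0.4 in 5, 2 and 3 pairs, but without the libraries that stand apart in 1, 2 and 2, the cMoP pair being H2-D1 with Tap1 (0.40). H2-K1 and H2-D1 had r of 0.44 in cMoP, 0.26 among BM monocytes and 0.61 among blood monocytes. Without those libraries it was 0.31 in cMoP and 0.63 in blood monocytes. Of the 50-base stretches of H2-K1, 5.43% also occur in H2-D1, and whether shared reads had a part in this r was not tested. In cMoP Tapbp had r of 0.54 with H2-K1 and 0.52 with H2-D1, and without the libraries that stand apart 0.38 and 0.09. In BM monocytes Tap1 had r of 0.48 with Nlrc5, both at 0 in most cells.

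**Figure D5:**
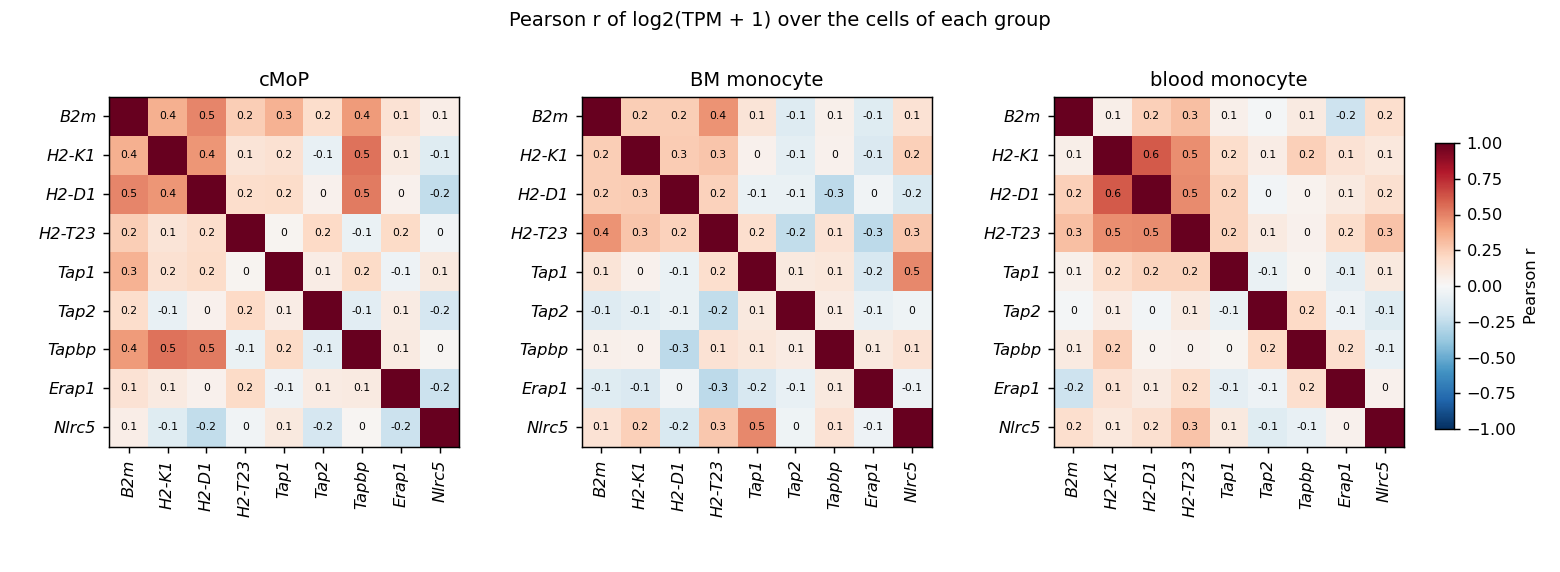
Pearson's r between the 9 genes over the cells of each group (66 cMoP, 57 BM monocytes, 38 blood monocytes), on a colour scale from -1 to 1. The highest value is 0.61, for H2-K1 with H2-D1 in blood monocytes, and the median pair is at most 0.10 in each group.

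The mean log2 level of 6 MHC class II presentation genes was set beside each member. In blood monocytes it had r of 0.51 with H2-K1, 0.46 with H2-T23, 0.44 with H2-D1 and -0.09 with Tap1 over 38 cells. Without replicate 29 the first 3 were 0.50, 0.45 and 0.43. Genes per cell had r of 0.40 with H2-K1, -0.08 with H2-T23 and 0.23 with H2-D1 in blood monocytes. Without replicate 29 these were 0.55, 0.20 and 0.57, for H2-K1 and H2-D1 above the values with class II genes. Whether genes per cell had a part in the class II values, or in that of H2-K1 with H2-D1, was not tested. B2m and the number of genes per cell had r of 0.60 in cMoP, but -0.10 without the libraries that stand apart. In BM monocytes, none of which stand apart, that r was -0.65.

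Genes whose pattern between cells was most like a member were sought among 2386 genes that exceeded 1 TPM in 50% or more of each group, by the mean of the 3 within-group values of r. For H2-K1 these were first H2-Q10, another heavy chain gene, at 0.46 (0.50 without the libraries that stand apart), and then H2-D1, at 0.44 (0.40). For H2-D1 they were Npc2, a lysosomal cholesterol carrier, at 0.47 (0.20), and H2-DMa, a class II peptide-exchange subunit, at 0.46 (0.34). B2m was most like Fcer1g, the common gamma chain of Fc receptors, at 0.58 (0.23). H2-T23 was most like Ctss, a lysosomal protease, at 0.35 (0.26), and Tapbp like Ly6e at 0.41 (0.30). Tap1, Tap2, Erap1 and Nlrc5 were too sparse to be searched.

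The rest of the pathway was read from gene lists, each by its count past 2-fold, with members of the 9 left out. Of the 8 genes listed as peptide loading chaperones, not all of which fold heavy chains, 7 were at least 2-fold lower in BM monocytes. Of all measured genes 30.8% were. The median difference over the 8 genes was -1.45, and their median log2 ratio of means -0.73, under 2-fold. Calr, the calreticulin gene, averaged 150 TPM in BM monocytes, against 777 TPM in cMoP, a log2 ratio of means of -2.36. Its difference in mean log2(TPM + 1) was -4.60. Hspa5, the chaperone BiP, differed by -3.17 and Ganab, a glucosidase that trims glycans of new chains, by -3.36. Between blood and BM monocytes 0 of the 8 reached 2-fold in either direction, where 11.6% of all measured genes did.

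Proteasome subunits showed the same direction on the log2 scale. Of the immunoproteasome and activator genes 3 of 5 were at least 2-fold lower in BM monocytes than in cMoP (median -1.10) and 0 were higher; Psmb9, a catalytic subunit whose gene adjoins Tap1, differed by -1.10. Its mean TPM was nonetheless 179 in BM monocytes and 106 in cMoP, so the sign depends on the summary. In blood monocytes Psmb9 lay 2.14 lower than in BM monocytes on the log2 scale. All 3 constitutive catalytic subunits were at least 2-fold lower in BM monocytes (median -2.24), as were all 6 cytosolic and endosomal peptidases (median -1.63), where 30.8% of all measured genes were. As log2 ratios of means these medians were 0.23 for the immunoproteasome and activator, -0.52 for the constitutive subunits and -0.10 for the peptidases, all under 2-fold.

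Of 15 regulators of class I transcription other than Nlrc5, 2 were at least 2-fold higher and 6 lower in BM monocytes than in cMoP, where 3.94% and 30.8% of all measured genes were; the share of lower ones, 40%, is near that background. Higher were Stat2 (1.38), which signals from the type I interferon receptor, and Irf2 (1.32), which binds interferon response elements and is named here after its value was seen. Irf8, a factor of monocyte and dendritic cell development, was lower (-2.91). Irf1, an activator of class I promoters, averaged 49.2 TPM in cMoP, 185 TPM among BM monocytes, and 328 TPM among those of blood, and its log2 difference between blood and cMoP was 1.75. Of 7 interferon receptor and kinase genes, against the same 3.94% and 30.8%, 1 was higher and 1 lower in BM monocytes than in cMoP, namely Ifngr2 (1.52), a chain of the interferon gamma receptor, and Ifnar2 (-1.10), a chain of the type I receptor. The mean TPM of Ifnar2 was 112 in BM monocytes and 97.0 in cMoP, so its sign too depends on the summary. Of 9 measured interferon gamma response genes, Igtp (1.02), an immunity-related GTPase, was higher there, and the guanylate-binding protein genes Gbp3 (-2.87) and Gbp7 (-2.13) were lower. That is 2 of 9 lower, or 22.2%, a share under the background of 30.8%.

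Myeloid receptors that bind class I molecules, and their relatives, were higher in BM monocytes for 5 of 5 measured genes, with a median difference of 5.26, where 3.94% of all measured genes were at least 2-fold higher. A gene seen in monocytes alone counts as measured through them, and is then higher there by that choice. The count of 5 of 5 is therefore a description and no test. Pirb, an inhibitory receptor for class I molecules, averaged 387 TPM in BM monocytes, against 16.9 TPM in cMoP. Klra2, of the Ly49 family, averaged 263 TPM in BM monocytes, against 0.28 TPM in cMoP, and it was higher again in blood, at 792 TPM against 263 TPM in BM monocytes (2.08). It was the 1 gene of the 5 at least 2-fold higher there, while Lilra6 (-1.68) and Pira2 (-1.51), of the paired activating family, were lower in blood than in BM monocytes. In that comparison 1.96% of all measured genes were at least 2-fold higher and 9.66% lower. Among 13 further class I heavy chain genes, 0 were at least 2-fold higher and 1, H2-M3 (-1.10), was lower in BM monocytes than in cMoP, although its mean TPM was 50.2 in BM monocytes and 38.7 in cMoP. In blood monocytes against cMoP H2-Q7 (1.67) and H2-Q10 (1.37) of these 13 were higher and H2-M3 (-1.16) was lower. Between those groups 4.28% of all measured genes were at least 2-fold higher and 37.7% lower. Of 4 measured class I-like genes, Fcgrt (1.61), whose product pairs with B2m to carry IgG, was higher in BM monocytes than in cMoP, where 3.94% of all measured genes were at least 2-fold higher and 30.8% lower. Cd1d1 (-1.87), which presents lipids, and Ulbp1 (-1.36), a ligand of an activating NK cell receptor, were lower there.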

How the data were processed

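Per the submitters' processing notes, the deposited values are TPM which the authors estimated with RSEM 1.2.19; the build named is GRCm38, and the aligner and gene models are not stated. The file holds 43280 rows, 18780 of them at 0 in every cell, with column sums of 997939 to 999955, and 0 columns matched no library. TPM keeps no read depth, so depth is unknown, and a level of 0 can be a failed estimate.

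Groups came from the labels. Differences, correlations, sums and exact Clopper-Pearson 95% intervals (counting error over cells only) were computed with Python 3.11.15, numpy 2.4.6, pandas 2.3.3 and scipy 1.17.1 on log2(TPM + 1). The formula for differences was tried on simulated data with known 2-fold and 4-fold changes. Correlations, sums and intervals were not tried in that way. With 1 sample per group no p-value is given. The 9 genes are all named; of every other list at most 4 measured genes, those of largest absolute difference, could be named, and of likeness up to 5 genes per member. Single blood cells named for their low sums were chosen after their values were seen. The members, lists and motifs were chosen with earlier results of these data known. Alternatives covered the effect size, pseudocount, scaling, filters, thresholds and libraries left out. The values of 1 marker gene are not reported here.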

Additional observations from a re-analysis of the deposited data

How the results depend on the processing

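Counts of members past 2-fold were 5 for BM monocytes against cMoP, 3 for blood against BM monocytes and 7 for blood monocytes against cMoP. Of all measured genes 34.7%, 11.6% and 41.9% were past 2-fold in the same order. With a pseudocount of 10 the first was 3 (2 higher, 1 lower) and the third 4 (4 higher, 0 lower). Of all measured genes 2.16% were at least 2-fold higher and 12.04% lower in the first, and 2.48% and 17.18% in the third. At a 4-fold threshold the counts were 2 (1 higher, 1 lower), 0 and 2 (1 higher, 1 lower). Of all measured genes 1.48% were then higher and 12.33% lower in the first comparison. These shares were 0.32% and 1.46% in the second, and 1.78% and 18.31% in the third. A stricter threshold counts fewer genes by construction, and for the pseudocount the cause was not tested. The summed heavy chain difference between blood and BM monocytes, 0.43, was 1.2 in cells with 4500 to 6000 genes, and the cause was not tested. Of the single-gene values over all settings, 255 kept their side of the threshold, 12 came to pass it and 30 no longer did. Leaving out blood replicate 29 was chosen after seeing the data, as was leaving out all libraries that stand apart. Without replicate 29, 3 members (3 higher, 0 lower) were past 2-fold for blood against BM monocytes. Of all measured genes 2.10% were higher and 9.33% lower there. For blood monocytes against cMoP 7 members were (5 higher, 2 lower), where 4.15% of all measured genes were higher and 37.5% lower. The summed heavy chain differences without replicate 29 ranged from 0.49 to 2.09. For BM monocytes against cMoP, scaling by median ratios put the median of all genes at -0.33 in place of -0.45, and B2m at 1.12 in place of 0.81; Tapbp for blood monocytes against cMoP changed sign, at -0.14 as deposited and 0.32 with that scaling. No paired analysis was possible because the labels give no replicate numbers shared between groups. TPM keeps no depth, so a gene at 0 in a cell may be below detection there.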
